A study of Mus musculus musculus x Mus musculus castaneus with 8 samples.

Results

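The genes of the clustered histone families were described in mouse tail fibroblasts treated with a DNA methylation inhibitor, an Aurora kinase inhibitor or both. All genes of the total count table with a symbol of the form Hist1h to Hist4h were taken, 69 of 24421 genes. By symbol they belong to the linker histone H1 (6 genes) and the core histones H2A (19), H2B (19), H3 (12) and H4 (13); the table lists Hist1h2al, an H2A member, as a pseudogene. The number in the symbol assigns 55 of them to cluster 1, 10 to cluster 2, 3 to cluster 3 and 1 to cluster 4. The table places the genes of these clusters on chromosomes 13, 3, 11 and 6, in that order. All 69 passed the filter on low counts, which kept 12643 genes.

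The fibroblasts came from female F1 animals of a Mus musculus (mus) by Mus castaneus (cas) cross, so reads over a variant can be given to a parental allele. Each group had 2 libraries. Untreated cells received solvent alone (DMSO). The second group received 5azadC (decitabine, a cytidine analogue that blocks DNA methylation), the third VX680 (tozasertib, an inhibitor of the Aurora kinases of mitosis), and the fourth both, written 5azadC+VX680. Solvent volume was kept equal in all groups. Drugs were added 24 h after plating and RNA was taken at 72 h. Doses are not given in the sources used here. Whether the 2 libraries of a group stand for separate cultures is not stated, and p-values therefore cover spread among these libraries, which may be technical.

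Histone proteins package DNA: H2A, H2B, H3 and H4 form the nucleosome core, and H1 binds the linker between nucleosomes. Most clustered histone genes are transcribed mainly in S phase, when new DNA has to be packaged. Their mRNAs end in a stem-loop instead of a poly(A) tail, so they are largely lost when libraries are made from poly(A) RNA and are kept in total RNA. Some clustered genes also give polyadenylated transcripts in cells that have stopped dividing. Many members have coding sequences so alike that a short read cannot always be assigned to one of them.

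How alike they are decides which of the single-gene values below can be trusted, so the sequences of the sets that carry this point are shown. They are coding sequences of GENCODE M21 transcripts (assembly GRCm38), matched by symbol for 67 of the 69 members. Each set shows 90 bases, 5′ to 3′, and capitals mark the bases that differ from the first sequence of the set. The H2B set holds coding bases 37 to 126, and shows a pair of identical genes, 2 near copies and the more distant Hist2h2be.
Hist1h2bq: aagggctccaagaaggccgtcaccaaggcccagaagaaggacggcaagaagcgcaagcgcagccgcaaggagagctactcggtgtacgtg
Hist1h2br: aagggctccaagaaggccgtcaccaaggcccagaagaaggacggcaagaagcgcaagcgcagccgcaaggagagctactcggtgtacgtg
Hist1h2bc: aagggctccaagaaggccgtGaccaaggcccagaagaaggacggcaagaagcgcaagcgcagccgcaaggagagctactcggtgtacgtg
Hist1h2bj: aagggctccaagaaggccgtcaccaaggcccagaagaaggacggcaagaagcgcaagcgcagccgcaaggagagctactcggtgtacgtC
Hist2h2be: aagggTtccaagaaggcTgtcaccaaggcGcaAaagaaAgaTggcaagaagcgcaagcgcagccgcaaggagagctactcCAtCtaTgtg
Hist1h2bc and Hist1h2bj each differed from Hist1h2bq at 2 positions of the whole coding sequence, and Hist2h2be at 48. The H2A set holds coding bases 1 to 90 and shows both identical H2A pairs beside Hist1h2an.
Hist2h2aa1: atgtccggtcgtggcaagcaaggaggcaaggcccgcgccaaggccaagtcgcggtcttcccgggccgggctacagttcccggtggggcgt
Hist2h2aa2: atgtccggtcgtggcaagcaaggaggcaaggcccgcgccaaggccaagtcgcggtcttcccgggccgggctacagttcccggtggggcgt
Hist1h2ao: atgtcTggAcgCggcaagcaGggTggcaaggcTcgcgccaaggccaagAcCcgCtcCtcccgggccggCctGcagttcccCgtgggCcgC
Hist1h2ap: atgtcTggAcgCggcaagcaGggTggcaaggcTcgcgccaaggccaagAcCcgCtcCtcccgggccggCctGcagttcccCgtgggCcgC
Hist1h2an: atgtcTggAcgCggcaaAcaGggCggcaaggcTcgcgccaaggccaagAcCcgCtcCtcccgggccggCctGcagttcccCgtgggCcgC
The H3 set holds coding bases 1 to 90 and shows the identical pair Hist2h3c1 and Hist2h3c2 beside Hist2h3b, which differs from them at 1 position of the whole coding sequence.
Hist2h3c1: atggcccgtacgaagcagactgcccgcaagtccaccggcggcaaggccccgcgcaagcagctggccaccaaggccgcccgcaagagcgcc
Hist2h3c2: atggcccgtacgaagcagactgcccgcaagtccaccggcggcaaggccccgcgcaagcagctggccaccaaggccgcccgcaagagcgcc
Hist2h3b: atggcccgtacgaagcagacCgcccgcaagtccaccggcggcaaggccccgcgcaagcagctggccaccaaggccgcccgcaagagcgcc
The H4 set holds coding bases 1 to 90 and shows the identical pair Hist1h4m and Hist1h4n, a common H4 gene and the lone member of cluster 4.
Hist1h4m: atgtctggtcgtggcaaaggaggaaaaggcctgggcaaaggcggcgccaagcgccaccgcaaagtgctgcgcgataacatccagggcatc
Hist1h4n: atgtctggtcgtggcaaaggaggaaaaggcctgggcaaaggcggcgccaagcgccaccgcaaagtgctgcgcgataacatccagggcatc
Hist1h4h: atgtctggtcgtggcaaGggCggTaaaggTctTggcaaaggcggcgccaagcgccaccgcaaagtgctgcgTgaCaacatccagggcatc
Hist4h4: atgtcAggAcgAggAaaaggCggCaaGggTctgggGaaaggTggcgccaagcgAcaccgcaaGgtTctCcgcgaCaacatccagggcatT
Hist1h4h differed from Hist1h4m at 10 positions of the whole coding sequence and Hist4h4 at 42, although H4 proteins are among the most alike of all histones.

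Across the 67 members, 10 had a coding sequence identical to that of another member, 40 others shared at least 50% of their 50-base stretches with other members, and 17 shared less. The 7 members that shared none were Hist1h1a, Hist1h1b, Hist1h1t, Hist2h2bb, Hist2h2be, Hist3h2ba and Hist4h4. Median identity between genes of one type was 70.6% for H1, 91.4% for H2A, 96.6% for H2B, 97.2% for H3 and 93.9% for H4. How the authors' counting treated reads that match several genes is not given in the sources used here, nor is its use of strand, so values of single copies with near-identical relatives are uncertain. The sum over a type does not depend on how reads were split within that type, though it would miss reads left out for matching several genes. It would also be too high if a read was given in full to each of several copies. The identical copies Hist2h3c1 and Hist2h3c2 had equal counts in every library, and whether reads were counted for both was not tested.

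The libraries held between 6908503 and 11169532 reads in genes, and members took between 1.34% and 2.11% of them. All 10 fibroblast markers were in the table, and their summed level was 34557 and 39293 CPM in untreated libraries, 22657 and 26380 with 5azadC, 17555 and 17852 with VX680, and 15442 and 14906 with both. Of 9 tested, 5 were lower and 3 higher with VX680, where 22.4% and 23.8% of all genes were. Keratinocyte markers summed to between 1.36 and 3.33 CPM, and endothelial markers to 11.7 and 13.6 CPM untreated and 84.6 and 92.7 with VX680.

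In untreated cells, H1 and H4 genes had the highest levels per length. Hist1h1c, a linker histone, stood first at 2585 ± 147 CPM per kb (read counts scaled to library size with TMM factors, as CPM, per kilobase of the deposited gene length; SD, n = 2). Hist1h1e followed at 2379 ± 204 and Hist1h4d at 1996 ± 167 CPM per kb. Hist1h1c and Hist1h1e differed by about their spread, Hist1h1e and Hist1h4d by more than it, and no test was made between genes. The median gene had 1492 CPM per kb for H1, 1027 for H4, 354 for H2B, 350.0 for H3 and 249 for H2A. Levels per length within a type ran from 0.857 to 2585 CPM per kb in H1 and from 39.3 to 1996 in H4.

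Clustered histone RNA as a whole was lower wherever VX680 was present. The summed level of all 69 members was 19043 and 20372 CPM in the untreated libraries, 12980.2 and 13058 with VX680, and 13789.8 and 12879.8 with both drugs. All 4 libraries with VX680 lay below all 4 without it. The sum fell by 33.9% with VX680 and by 32.3% with both drugs, against untreated cells. With 5azadC alone the libraries read 16477 and 22280.5 CPM, one below and one above both untreated libraries, and the mean moved by -1.67%. In bulk RNA, fewer cells making a transcript and less of it per cell cannot be told apart. The part of the lower fibroblast markers and higher endothelial markers in these values was not tested.

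**Figure D1:**
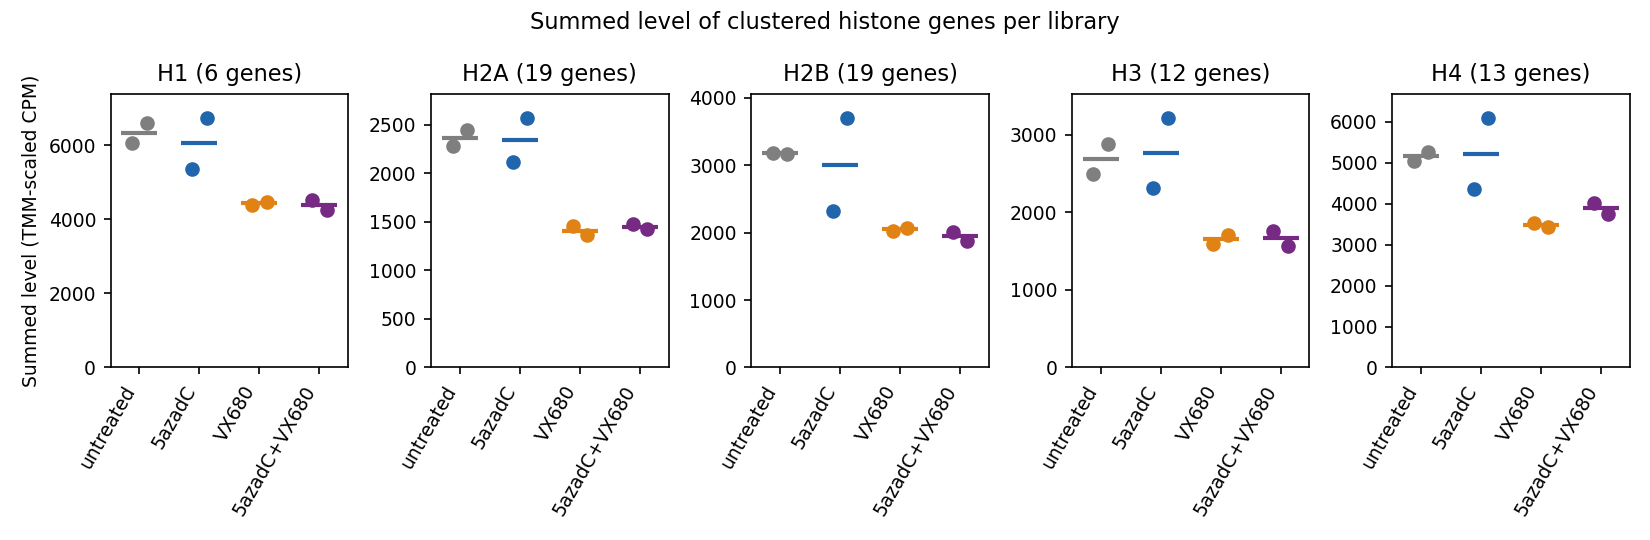
Summed level of the members of each histone type (y axis, TMM-scaled CPM from 0) in the 8 libraries; points are libraries, lines are group means of 2. In each type both VX680 libraries and both 5azadC+VX680 libraries lie below the untreated ones, while the 5azadC libraries lie far apart.

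The lower level was shared by all 5 types. H1 went from 6323 ± 384 CPM in untreated cells to 4432 ± 48.8 with VX680 (SD, n = 2), H2A from 2364 ± 123 to 1408 ± 65.4, and H2B from 3176 ± 5.03 to 2048 ± 38.2. H3 went from 2692 ± 279 to 1652 ± 90.3, and H4 from 5152 ± 159 to 3479.9 ± 56.8. On the log2 scale these differences ran from -0.51 for H1 to -0.75 for H2A, larger than the spread between replicates, and libraries of the compared groups did not overlap in any type. With both drugs the differences from untreated cells ran from -0.41 for H4 to -0.71 for H2B. These sums carry no test, since the members were chosen as a group.

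Gene by gene, 46 of 69 members were lower with VX680 than in untreated cells and 6 were higher (edgeR, adjusted p under 0.05 over all genes tested). Among all 12643 genes, 22.4% were lower and 23.8% higher in that comparison. The median log2 change was -0.66 over members and 0.01 over all genes. Libraries did not overlap, with VX680 the lower, for 58 members, against 37.1% of all genes. By type, the lower genes were 4 of 6 for H1, 13 of 19 for H2A, 11 of 19 for H2B, 8 of 12 for H3 and 10 of 13 for H4. No H3 or H4 gene was called higher, and all values of these types were negative. The 6 higher members were Hist1h1t, Hist1h2aa, Hist2h2be, Hist3h2ba and the identical pair Hist1h2bq and Hist1h2br.

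**Figure D2:**
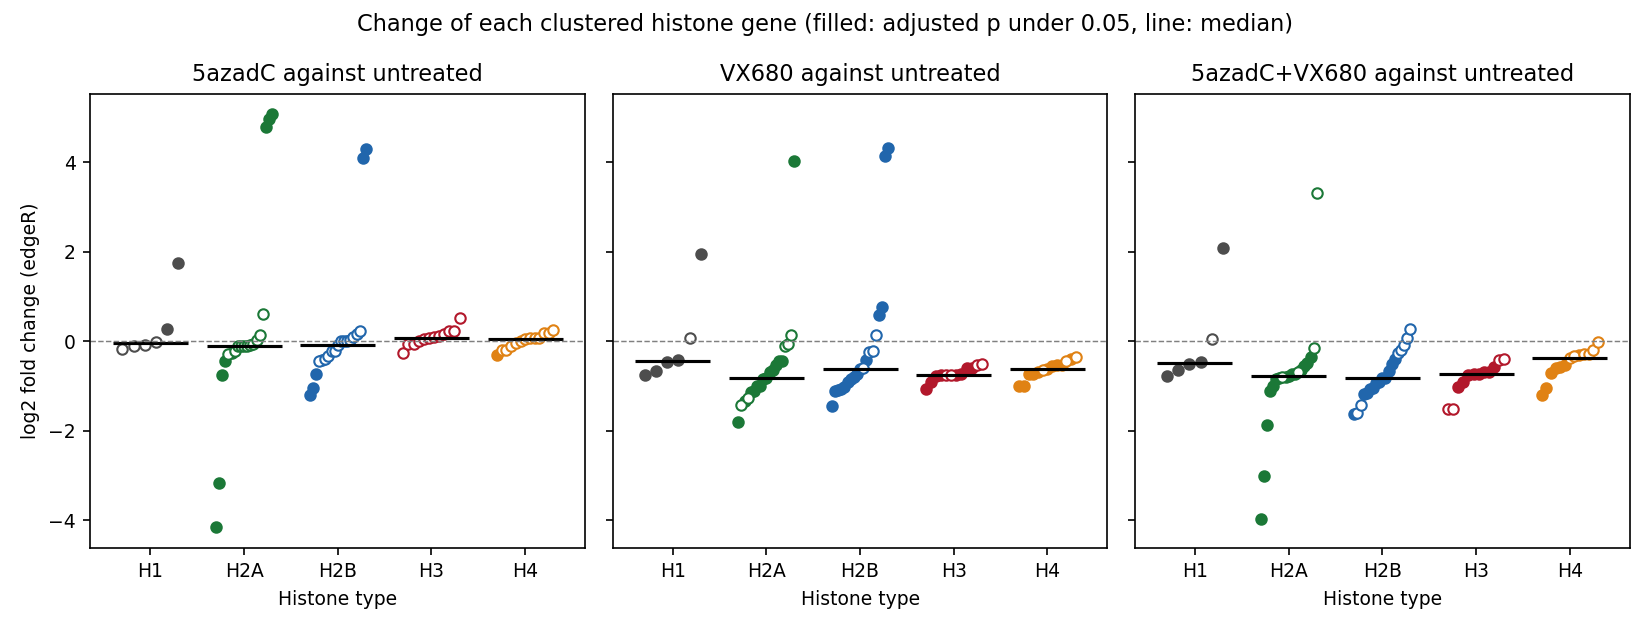
log2 fold change of each of the 69 members (y axis) by histone type (x axis) in the 3 comparisons with untreated cells; filled points passed an adjusted p of 0.05, open points did not, and black lines are medians. With VX680 and with both drugs most points lie below 0, and with 5azadC alone most lie near 0 with a few far from it.

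Among the H1 genes, Hist1h1d showed the largest fall. It had 1353 and 1552 CPM in the untreated libraries, 1221 and 1663 with 5azadC, 857 and 856 with VX680, and 951 and 905 with both drugs. The 5azadC libraries enclosed the untreated ones, and the 4 libraries with VX680 lay below all others. The change with VX680 was -0.76 ± 0.12 (log2, SE; adjusted p = 0.00021). Hist1h1e had 1741 and 1966 CPM untreated and 1350.1 and 1335 with VX680, a change of -0.46 ± 0.09 (adjusted p = 0.0011). Hist1h1c, which can also be polyadenylated, changed by -0.43 ± 0.11 (adjusted p = 0.0044), and Hist1h1b by -0.66 ± 0.14 (adjusted p = 0.0021). Hist1h1c missed the threshold under 1 of 15 alternative settings, at an adjusted p of 0.06. Hist1h1a stood apart from these 4. It had 289 and 262 CPM untreated, 337 and 329 with 5azadC, 280.3 and 301 with VX680, and 294 and 280.0 with both. Its VX680 libraries overlapped the untreated ones (0.08 ± 0.09, adjusted p = 0.51), and with 5azadC it was higher by 0.27 ± 0.09 (adjusted p = 0.024), a call lost under 3 of 15 alternatives (adjusted p up to 0.41).

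Of the H2A genes, Hist1h2ae had the smallest p of all members with VX680. It had 135 and 142 CPM untreated, 129 and 131 with 5azadC, 69.5 and 68.2 with VX680, and 79.5 and 76.2 with both drugs. The libraries fell into a high set without VX680 and a low set with it, with no overlap. Its change with VX680 was -1.002 ± 0.09 (adjusted p = 1.5e-06), and it passed under all 15 alternatives run, with changes between -1.06 and -0.90. Hist1h2af had 79.2 and 95.3 CPM untreated, 66.6 and 61.0 with 5azadC, 41.3 and 37.8 with VX680, and 43.8 and 42.7 with both. All 6 treated libraries were below both untreated ones, and those with VX680 were lowest (-1.13 ± 0.12, adjusted p = 4.8e-06). Hist1h2ab, with 272 and 287 CPM untreated and 166 and 152 with VX680, changed by -0.81 ± 0.10 (adjusted p = 1.4e-05). Hist2h2ac of cluster 2 changed by -0.69 ± 0.09 (adjusted p = 4.1e-05). The H2A gene with the highest level per length, Hist1h2ai, had 297 and 423 CPM untreated and 204 and 126 with VX680 (-1.12 ± 0.19, adjusted p = 0.00028).

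Among the H2B genes, Hist1h2bm had 98.8 and 112 CPM untreated, 57.2 and 55.6 with VX680, and 84.1 and 74.97 with both drugs. It fell by 0.90 ± 0.11 with VX680 (adjusted p = 1.4e-05), and its libraries with both drugs lay between the other sets. Hist1h2be had 325 and 334 CPM untreated, 275 and 393 with 5azadC, 203 and 195 with VX680, and 215 and 199 with both (-0.73 ± 0.13 with VX680, adjusted p = 0.00049). Hist2h2bb, the H2B gene with the highest level per length, had 499 and 485 CPM untreated, 379 and 611 with 5azadC, 421 and 426 with VX680, and 414 and 404 with both. Its libraries with VX680 were all below the untreated ones, but the change of -0.21 ± 0.15 did not pass the test (adjusted p = 0.28).

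Among the H3 genes, Hist2h3b had the highest level per length, with 470.5 and 542 CPM untreated, 455 and 566 with 5azadC, 307 and 289 with VX680, and 338 and 272 with both. The VX680 libraries did not overlap the untreated ones (-0.76 ± 0.12, adjusted p = 0.00022). Hist1h3i, with 147 and 148 CPM untreated and 69.6 and 69.8 with VX680, showed the largest fall of the type at -1.08 ± 0.15 (adjusted p = 6.8e-05). Hist1h3f fell by 0.72 ± 0.12 (adjusted p = 0.00034). All 12 H3 genes had a negative value with VX680, between -1.08 and -0.50.

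For H4, Hist1h4h had 734 and 620.2 CPM untreated, 710.4 and 838 with 5azadC, 437 and 399.6 with VX680, and 462 and 439.9 with both. Again the 4 libraries with VX680 were the lowest (-0.69 ± 0.11 with VX680, adjusted p = 0.00014). Hist1h4d, the H4 gene with the highest level per length, had 685 and 772 CPM untreated and 567 and 544 with VX680 (-0.39 ± 0.10, adjusted p = 0.0075). It lost the call under 3 of 15 alternatives (adjusted p up to 0.1). With both drugs Hist1h4d had 667 and 607 CPM, below the untreated libraries by -0.19 ± 0.10, which did not pass (adjusted p = 0.13). Values for all 13 H4 genes with VX680 lay between -1.004 and -0.35.

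The members that share little sequence with others gave a mixed picture. Of the 17 that shared under 50% of their 50-base stretches, 9 were lower with VX680, 4 were higher, and the median was -0.43, where 22.4% of all genes were lower and 23.8% higher. For the 7 of them that shared no stretch, 1 was lower and 3 higher with VX680, with a median of 0.08. With both drugs 2 were lower and 1 higher (27.3% and 28.4% of all genes), with a median of -0.07. The 3 higher with VX680 had low untreated means: 0.63 CPM for Hist1h1t, 8.35 for Hist2h2be and 13.3 for Hist3h2ba. Of the others, Hist1h1b went from a mean of 874 CPM to 554 with VX680, and Hist4h4 from 686 to 438. Hist2h2bb went from 492 to 424 and Hist1h1a from 276 to 291. Of the 40 that shared more without being identical, 34 were lower with VX680, none was higher, and the median was -0.73. With VX680, the medians of the 17 and of the 40 were below that of all genes, and that of the 7 was not. The part that read assignment plays in this difference was not tested.

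Of the 5 members known for polyadenylated transcripts, Hist1h1c fell and Hist2h2be rose with VX680. Hist2h2be had 8.06 and 8.64 CPM untreated, 6.13 and 6.44 with 5azadC, 16.6 and 11.3 with VX680, and 11.2 and 8.82 with both. Both VX680 libraries were above all untreated and 5azadC libraries (0.75 ± 0.25, adjusted p = 0.023), and the call was lost under 5 of 15 alternatives. Hist3h2a had 167 and 161 CPM untreated and 179 in each VX680 library (0.13 ± 0.11, adjusted p = 0.34). Hist1h2bc had 249.5 and 263 CPM untreated and 202 and 234 with VX680 (-0.23 ± 0.13, adjusted p = 0.14). Hist4h4 had 729 and 643 CPM untreated, 352 and 857 with 5azadC, and 449 and 428 with VX680 (-0.65 ± 0.26, adjusted p = 0.056).

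Hist3h2ba, an H2B gene of cluster 3, moved in opposite directions with the 2 drugs. It had 14.5 and 12.2 CPM untreated, 5.57 and 6.17 with 5azadC, 19.5 and 20.9 with VX680, and 13.2 and 12.3 with both drugs. The 5azadC libraries were the lowest and the VX680 libraries the highest, and those with both lay within the untreated range. The change was -1.19 ± 0.22 with 5azadC (adjusted p = 0.0006) and 0.59 ± 0.19 with VX680 (adjusted p = 0.022). The fall with 5azadC passed under all 15 alternatives, and the rise with VX680 was lost under 5. Hist3h2bb-ps of the same cluster, listed as protein-coding though its symbol marks a pseudogene, had 7.16 and 6.59 CPM untreated and 3.01 and 3.70 with 5azadC (-1.05 ± 0.33, adjusted p = 0.019). Hist3h2ba shared no 50-base stretch with any member whose coding sequence was compared. Hist3h2bb-ps had no coding sequence in that comparison, so sharing between it and Hist3h2ba was not tested.

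When VX680 was added to 5azadC, 46 members were lower and 2 higher than with 5azadC alone, where 14.8% of all genes were lower and 9.98% higher (24.8% either way). Among the lower were the identical copies Hist1h2bq, Hist1h2br, Hist2h2aa1 and Hist2h2aa2, whose 5azadC reads lay almost wholly in a single library. The median change was -0.61 over members and 0.00 over all genes. This comparison shares no library with that of VX680 against untreated cells, and 39 members were lower in both, 84.8% of either set of 46. Over all genes, 1192 were lower in both, 42.1% of those lower with VX680 alone and 63.5% of those lower on top of 5azadC. Hist1h2ae fell by 0.74 ± 0.09 (adjusted p = 7.8e-05), Hist1h4h by 0.78 ± 0.11 (adjusted p = 0.00017) and Hist1h3h by 0.81 ± 0.12 (adjusted p = 0.00029). Libraries did not overlap, with 5azadC+VX680 the lower, for 48 members, against 31.5% of all genes, and with it the higher for 3, against 29.9%. The count of lower members depended on single libraries, being 26 without 5azadC+VX680 replicate 1 and 19 without replicate 2. The 2 higher members were Hist3h2ba (1.12 ± 0.22, adjusted p = 0.0023) and Hist3h2bb-ps (1.13 ± 0.33, adjusted p = 0.023), whose call was lost under 5 of 15 alternatives (adjusted p up to 0.22).

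**Figure D3:**
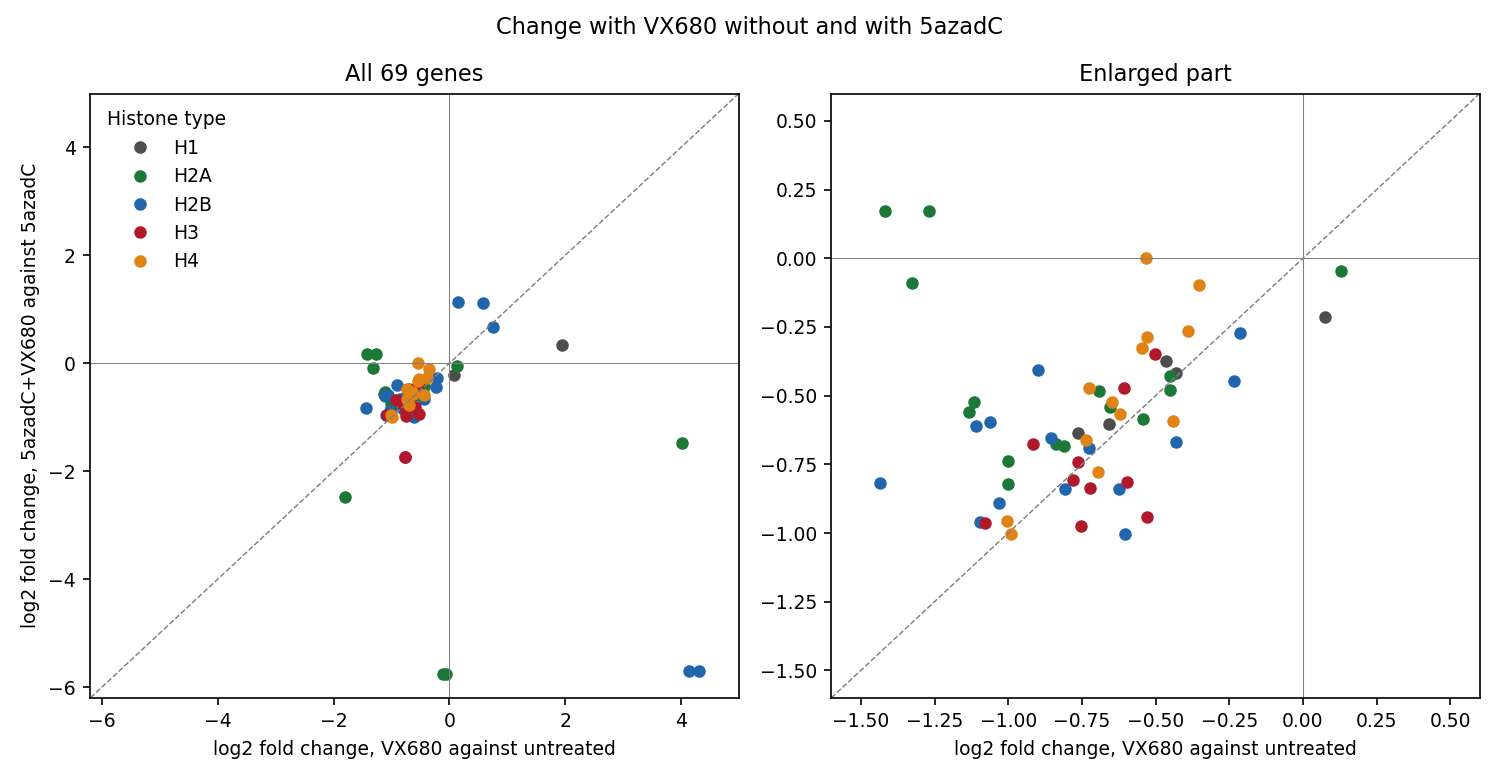
log2 fold change of each member with VX680 in the absence (x axis) and presence (y axis) of 5azadC, colored by histone type, with an enlarged part on the right; the dashed line marks equal change. The 39 members lower in both comparisons lie below 0 on both axes, and the points far to the lower right are Hist1h2bq and Hist1h2br.

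Against untreated cells, 46 members were lower with both drugs and 1 was higher, Hist1h1t, where 27.3% of all genes were lower and 28.4% higher (55.7% either way). The median was -0.70 over members and 0.01 over all genes, and 60 members did not overlap, with the treated libraries lower, against 38.6% of all genes. The smallest p was again that of Hist1h2ae (-0.83 ± 0.09, adjusted p = 4.6e-06). Hist1h2bh had 267 and 256 CPM untreated, 153 and 237 with 5azadC, 149 and 139.8 with VX680, and 122 and 126 with both, the lowest 2 of the 8 (-1.08 ± 0.15, adjusted p = 3.8e-05). Of all members, 38 were lower in each of the 3 comparisons that add VX680; 9.31% of all genes were. Comparisons with the combination share its libraries, and 2 of the 3 share the untreated ones, so part of this count is built in.

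Between the combination and VX680 alone, few members differed. Hist1h2bm was higher with both drugs (0.50 ± 0.11, adjusted p = 0.015), the one member called, where 2.45% of all genes were higher and 4.05% lower (6.5% either way). No member was called lower by edgeR, with DESeq2 likewise at 0, and 6 were lower at an unadjusted p under 0.05. The Hist1h2bm call was lost under 5 of 15 alternatives (adjusted p up to 0.18). Libraries did not overlap for 15 members that were higher, against 27.6% of all genes, and for 20 that were lower, against 28.3%. By summed level, H4 was higher with both drugs than with VX680 by 11.7%, without overlap, and H2B moved by -4.97%. The change with VX680 differed between cells with and without 5azadC for 7 members, 4 with a positive and 3 with a negative difference, where 4.95% and 10.6% of all genes did (15.6% either way).

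With 5azadC alone the members showed no common direction: 7 were higher and 10 lower than in untreated cells, where 22.6% of all genes were higher and 19.6% lower. Of the 7 higher, 4 were the identical copies Hist1h2bq, Hist1h2br, Hist2h2aa1 and Hist2h2aa2, each raised in a single 5azadC library. The median was -0.01 over members and 0.00 over all genes. Libraries did not overlap for 14 members that were lower, against 33.6% of all genes, and for 4 that were higher, against 34.8%. No H3 gene was called, and for H4 only Hist1h4i, with 556 and 599 CPM untreated and 516 and 412 with 5azadC (-0.31 ± 0.10, adjusted p = 0.027). Hist1h2bn had 218 and 184 CPM untreated and 77.5 and 168 with 5azadC (-0.72 ± 0.24, adjusted p = 0.028), and Hist2h2ab had 67.2 and 47.4 untreated and 26.5 and 42.9 with 5azadC (-0.75 ± 0.26, adjusted p = 0.034). These 3 calls were each lost under 6 of 15 alternatives.

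The 2 libraries with 5azadC differed from each other in histone RNA. Of the 59 members with a mean of at least 10 CPM, 53 were higher in replicate 2, 89.8%, against 46.5% of the 9393 genes at that level. The median log2 ratio of replicate 2 to replicate 1 was 0.43. At least 1.5-fold between the 2 lay 22 of the 59 (37.3%), against 6.19% of all genes, while untreated, VX680 and combination libraries had 3, 4 and 2 such members (5.08%, 6.78% and 3.39%, against 2.29%, 0.586% and 1.26% of all genes). In the combination libraries the members leaned the other way, with 11 of 59 higher in replicate 2 (18.6%, against 48.9% of all genes) and a median log2 ratio of -0.09. Hist4h4 had 352 CPM in replicate 1 and 857 in replicate 2, and Hist1h2bk had 106 and 280. Other RNAs without a poly(A) tail differed between the same libraries, such as Rpph1, the RNA of ribonuclease P, with 9569 and 27092 CPM, and Rmrp with 17472 and 28390. In the untreated libraries Rmrp had 14974 and 26361 CPM and Rpph1 13531 and 17530, while the member sums there were the 19043 and 20372 CPM given above. Without 5azadC replicate 1, 23 members were called higher with 5azadC and 6 lower; without replicate 2, 4 were called higher and 34 lower. What these RNAs and the histone members share between the libraries was not tested.

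Several of the largest single-gene values in the 5azadC comparison came from identical copies. Hist1h2bq had 3 and 4 reads in the untreated libraries, 138 and 2 with 5azadC, 155 and 4 with VX680, and 0 and 2 with both drugs. Its copy Hist1h2br had 4 and 4, 137 and 2, 155 and 4, and 0 and 2 reads in the same order. Each rise was thus seen in 1 library of a pair. Hist2h2aa1 had 12 and 12 reads untreated, 11 and 672 with 5azadC, 12 and 11 with VX680, and 7 and 5 with both, and Hist2h2aa2 had 14 and 12, 11 and 672, 13 and 11, and 7 and 5. Again 1 library, 5azadC replicate 2, held the reads. Hist2h3c1 and Hist2h3c2 had the same counts in every library: 94 and 74 untreated, 23 and 148 with 5azadC, 39 and 58 with VX680, and 12 and 36 with both.

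Hist1h2ao and Hist1h2ap were the copies low in both 5azadC libraries. Hist1h2ao had 63 and 39 reads untreated, 3 and 2 with 5azadC, 38 and 2 with VX680, and 3 and 2 with both. Hist1h2ap had 29 and 22, 3 and 2, 20 and 2, and 3 and 2 reads in the same order. VX680 replicate 1 was the treated library in which both kept their reads. Both were called lower with 5azadC (Hist1h2ao -4.15 ± 0.85, adjusted p = 0.0015; Hist1h2ap -3.18 ± 0.79, adjusted p = 0.0055). The closely related Hist1h2an swung in the untreated pair, with 2329 and 439 reads, and had 1759 and 1669 with 5azadC, 395 and 311 with VX680, and 240 and 305 with both. Of the 10 identical copies, 8 differed at least 2-fold between replicates of some group, compared with 4 of 40 and 2 of 17 in the classes with less sharing. Genes of a pair had equal or near-equal counts in many libraries, so the 8 are not separate observations. In untreated cells these 8 also stood at rank 58 or below among all members in level per length. The part of low level in this comparison was not tested. Hist1h4m had 523 and 342 reads untreated, 418 and 475 with 5azadC, 353 and 213 with VX680, and 271 and 268 with both. Hist1h4n had 155 and 99, 109 and 93, 73 and 54, and 44 and 45 reads in the same order. The ratio of the pair ran from 3.37 in untreated replicate 1 to 6.16 in 5azadC+VX680 replicate 1.

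**Figure D4:**
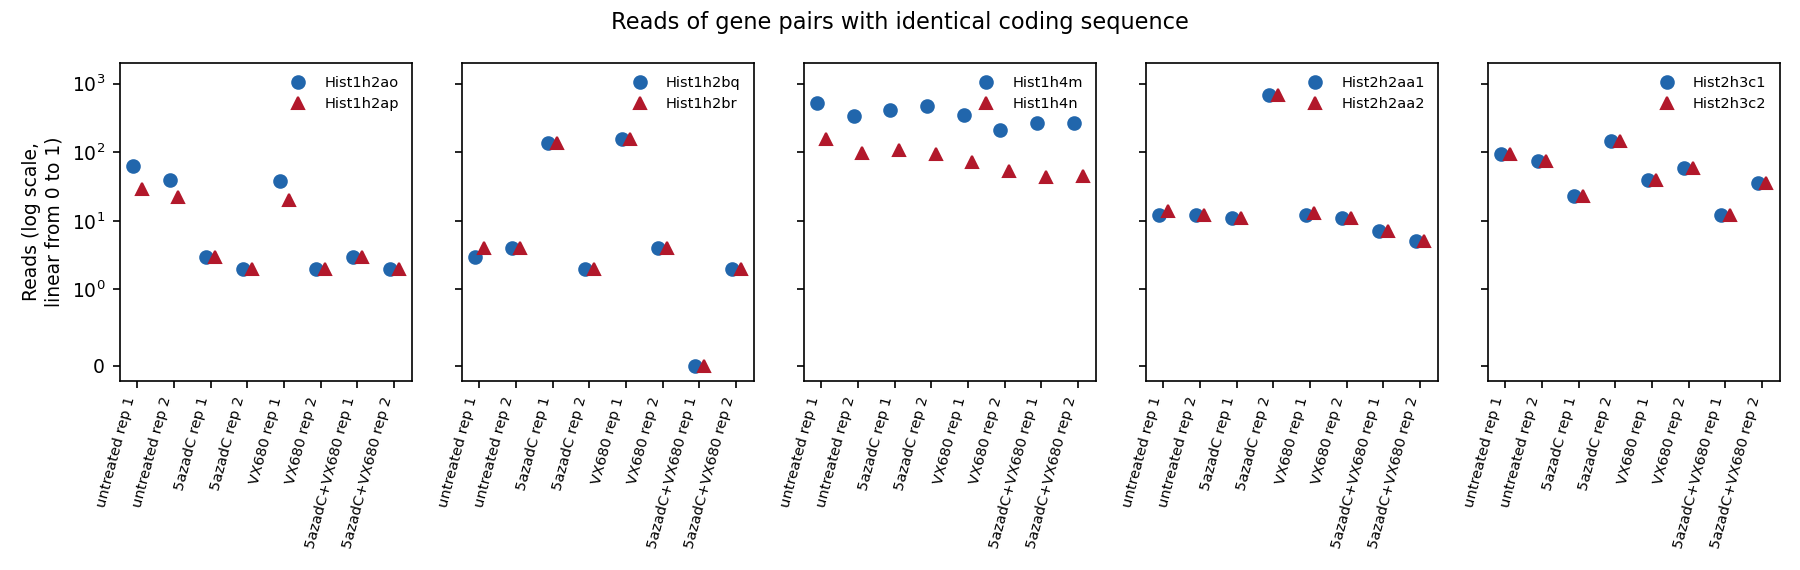
Reads per library (y axis, log scale, linear from 0 to 1) for the 5 pairs of members with identical coding sequence; circles and triangles are the members of a pair. Hist1h2bq and Hist1h2br rise in 5azadC replicate 1 and VX680 replicate 1, Hist2h2aa1 and Hist2h2aa2 in 5azadC replicate 2, and Hist1h4m lies above Hist1h4n in every library.

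Of the 3 members known from the testis, Hist1h1t and Hist1h2aa were higher with either drug alone, and Hist1h2ba was lower with VX680. Hist1h1t, the linker histone of spermatocytes, had 9 and 3 reads untreated, 15 and 21 with 5azadC, 34 and 13 with VX680, and 20 and 21 with both. All 6 treated libraries were above the untreated ones. It was higher with 5azadC (1.74 ± 0.59, adjusted p = 0.03), with VX680 (1.94 ± 0.58, adjusted p = 0.013) and with both (2.08 ± 0.58, adjusted p = 0.0076), with calls lost under 5, 2 and 1 of 15 alternatives. Hist1h2aa, a testis H2A, had 0 and 1 read untreated, 27 and 6 with 5azadC, 17 and 4 with VX680, and 5 and 5 with both. The ratio to untreated cells, from pooled reads and scaled depth, was 36.2 with 5azadC (95% counting interval 6.06 to 1474), 21.2 with VX680 (3.41 to 876) and 12.4 with both (1.77 to 539). Hist1h2ba, a testis H2B with 80.5 and 92.1 CPM untreated, had 37.5 and 45.4 with VX680 and fell with the bulk of the members (-1.06 ± 0.15, adjusted p = 5.5e-05). The 9 germ cell markers summed to between 0.181 and 0.732 CPM in untreated libraries, 3.56 and 4.90 with 5azadC, 0.399 and 0.588 with VX680, and 1.97 and 3.86 with both. Hist1h2aa passed with 5azadC (adjusted p = 0.0049) and with VX680 (adjusted p = 0.019) but not with both (adjusted p = 0.064). Prm1, Prm2 and Tnp1 had no read in any library. The part of these markers in the testis members' values was not tested.

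The histone genes outside the clusters mostly make polyadenylated mRNA and can be used outside S phase. With VX680 against untreated cells they were called about as often as all genes. Of 11 such genes, 3 were higher and 3 lower with VX680, where 23.8% and 22.4% of all genes were, and the median was 0.06. With 5azadC, 1 was higher and 5 lower, where 22.6% and 19.6% of all genes were. For 5azadC+VX680 against 5azadC, 4 were higher and 0 lower, where 9.98% and 14.8% of all genes were. H3f3b, a source of the replacement histone H3, had 324 and 319 CPM untreated and 328 and 318 with VX680 (0.01 ± 0.09, adjusted p = 0.95). H1f0, the linker histone of resting cells, had 1176 and 1288 CPM untreated, 964 and 937 with 5azadC, and 1526 in each VX680 library (0.31 ± 0.08, adjusted p = 0.0083). H2afj rose with each drug, from 72.9 and 77.6 CPM untreated to 223 and 196 with VX680 (1.48 ± 0.11, adjusted p = 1.8e-07). Cenpa, the centromeric H3, rose from 104 and 94.2 CPM to 165 and 164 (0.72 ± 0.09, adjusted p = 3e-05). H2afx and H2afz did not pass with VX680 (0.14 ± 0.09 and 0.06 ± 0.25).

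Factors that make or process histone mRNA showed no common direction. Of 18 genes, 3 were higher and 2 lower with VX680 (23.8% and 22.4% of all genes), 4 and 2 with 5azadC (22.6% and 19.6%), and 6 and 3 with both (28.4% and 27.3%), shares near or under those of all genes. Slbp, whose protein binds the stem-loop of histone mRNA, had 131.5 and 131 CPM untreated, 99.7 and 107 with 5azadC, 89.3 and 106 with VX680, and 102 and 88.8 with both (-0.43 ± 0.11 with VX680, adjusted p = 0.0052). Npat, the coactivator of histone transcription, had 96.1 and 80.5 CPM untreated, 60.8 and 61.0 with 5azadC, 65.0 and 71.7 with VX680, and 59.2 and 57.1 with both (-0.38 ± 0.11 with VX680, adjusted p = 0.012). For both genes all 6 treated libraries were below the untreated ones, also those with 5azadC alone (Slbp -0.35 ± 0.11, adjusted p = 0.019; Npat -0.54 ± 0.11, adjusted p = 0.0014). Casp8ap2 and Eri1, which act in histone mRNA production and decay, did not pass with VX680 (-0.18 ± 0.12 and -0.02 ± 0.09). Upf1, needed for histone mRNA decay, rose by 0.48 ± 0.11 with VX680 (adjusted p = 0.0031). The 15 chaperones of histones in the table had 4 higher and 4 lower with VX680, where 23.8% and 22.4% of all genes were. Among them, Ipo4 rose by 0.73 ± 0.09 (adjusted p = 1.4e-05) and Hjurp fell by 0.63 ± 0.09 (adjusted p = 8.2e-05).

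Of 30 genes of S phase and DNA replication, 12 were lower and 2 higher with VX680, where 22.4% and 23.8% of all genes were. Their median was -0.20, a smaller shift than the -0.66 of the histone members. With 5azadC, 8 were lower and 2 higher (19.6% and 22.6% of all genes). With both drugs 7 were lower and 5 higher (27.3% and 28.4% of all genes). Pcna, the replication clamp, had 57.4 and 51.5 CPM untreated, 38.8 and 48.0 with 5azadC, and 37.8 and 37.2 with VX680 (-0.54 ± 0.13 with VX680, adjusted p = 0.003). Mcm6, of the replicative helicase, had 221 and 189 CPM untreated and 133 and 132 with VX680 (-0.63 ± 0.09, adjusted p = 0.00011). Rrm2, which makes deoxynucleotides, rose from 172 and 182 CPM to 276 and 268 (0.62 ± 0.09, adjusted p = 6.8e-05). The part of S phase cells in the histone values was not tested, and no test compared the lists.

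Of 11 other RNAs without a poly(A) tail, 2 were higher and 1 lower with VX680, where 23.8% and 22.4% of all genes were. Their median was -0.23. Terc, the telomerase RNA, rose from 10.8 and 15.4 CPM to 45.1 and 36.2 (1.67 ± 0.20, adjusted p = 1.4e-05), and Rnu12, a spliceosomal RNA, fell from 24.3 and 46.1 to 16.9 and 17.4 (-1.01 ± 0.29, adjusted p = 0.012). Rmrp had 15782 and 14498 CPM with VX680 (-0.45 ± 0.22, adjusted p = 0.12).

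Reads that could be assigned to a parental allele gave a second view of the members. Between 30.5% and 33.1% of member reads carried such a variant, and 58 members averaged 10 or more such allelic reads. In untreated cells 20 of them had a mus share under 5% or over 95%, 34.5% of the 58, against 5.75% of 10023 autosomal genes. A departure from equal shares was called for 49, 20 toward mus and 29 toward cas, where 11.3% and 26.9% of all 10301 genes were called. Hist1h1c had 42.7% and 44.0% mus reads in the untreated libraries and between 41.6% and 43.2% in the treated ones, over at least 3206 allelic reads in each. Hist1h1e likewise stayed between 43.9% and 47.2%. Hist1h1d read 1.096% and 0% untreated and at most 0.985% elsewhere; 0 of 247 allelic reads allows a share of up to 1.21%. The share of these H1 genes stayed near the same level in all 8 libraries. Intervals cover counting error only.

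**Figure D5:**
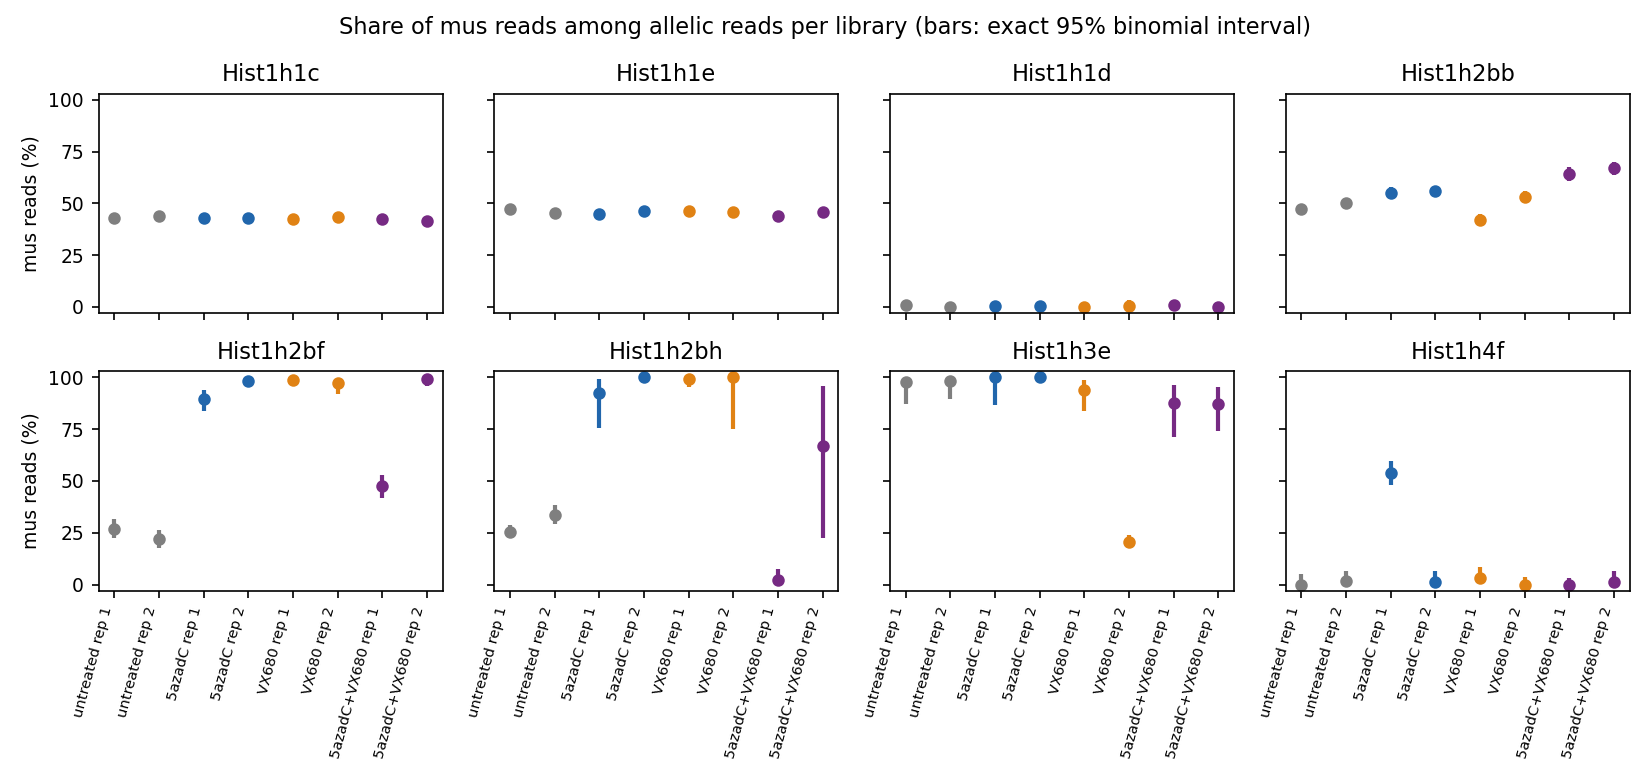
Share of mus reads among allelic reads (y axis, percent) in the 8 libraries for 8 members; bars are exact 95% binomial intervals from the reads of 1 library. Among those shown, the 3 H1 genes stay level, while Hist1h2bf, Hist1h2bh, Hist1h3e and Hist1h4f jump between libraries.

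Several H2B, H3 and H4 genes changed their share from library to library. Others of these types stayed about as level as the H1 genes above. Their ranges over the libraries were 2.95 points for Hist1h2ba, 3.19 for Hist1h3h and 1.97 for Hist1h4d. The share of 21 of the 58 members varied by at least 30 percentage points over the 8 libraries, 36.2%, against 27.8% of autosomal genes. The median range was 12.4 points for members and 19.9 points for autosomal genes. A range also depends on the number of allelic reads, for which members and autosomal genes were not matched. Whether members vary more or less than other genes was therefore not tested. Hist1h2bh had 25.6% of 789 and 33.7% of 412 allelic reads from mus in the untreated libraries, 92.6% of 27 and 100% of 460 with 5azadC, 99.1% of 116 and 100% of 13 with VX680, and 2.11% of 95 and 66.7% of 6 with both. Hist1h3e was at 97.6% and 98.0% untreated and at 20.5% of 669 reads in VX680 replicate 2. Hist1h4f stayed between 0% and 3.06% except for 53.8% of 303 reads in 5azadC replicate 1. The number of allelic reads varied too, from 26 to 669 for Hist1h3e, and the part of read assignment among copies was not tested.

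Changes of the allelic ratio were called for 5 of 58 members with 5azadC, all toward mus, where 0.155% of all genes changed toward mus and 0.126% toward cas. They were Hist1h2bh, Hist1h2bf, Hist1h4f, Hist1h2bn and Hist1h2an. No member changed toward cas in edgeR, where 6 did so at an unadjusted p under 0.05; no other tool was run on the alleles. With VX680, 3 members changed toward mus (Hist1h2bh, Hist1h2bf, Hist1h2bj) and 1 toward cas (Hist1h3e), where 0.194% and 0.184% of genes did (0.379% either way). With both drugs, 4 changed toward mus (Hist1h2ah, Hist1h2bb, Hist1h2bf, Hist1h2bn) and Hist1h2bg toward cas, where 0.184% and 0.33% did. Hist1h2bf in all 3 comparisons, Hist1h2bb with both and Hist1h2bh with 5azadC passed under all 11 alternatives, and each of the other calls was lost under 1 to 4 of them. Hist1h2bb was well covered by allelic reads, with 841 or more in each library. Its mus share was 47.0% and 50.1% untreated, 55.1% and 55.8% with 5azadC, 42.0% and 53.0% with VX680, and 64.1% and 67.0% with both, a log2 ratio change of 1.01 ± 0.15 with both (adjusted p = 5.4e-05). All of these genes are H2A, H2B, H3 or H4 members, and each shares 50-base stretches with other members. This holds for most members, since 6 of the 69 are H1 genes and 7 of the 67 compared shared no stretch. The part of shared sequence in these calls was not tested.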

How the data were processed

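RNA-seq of total RNA was analysed in 8 libraries, 2 for each of 4 groups. Per the submitters' processing notes, TopHat2 2.0.10, HOMER 4.8 and edgeR were used with the mm9 build. How reads that match several genes were counted, and whether strand was used, is not given in the sources used here. The deposited counts are whole reads per gene, for all reads and, separately, for those of either parental allele (mus or cas). The authors' normalized signal per gene was used in an alternative only. Gene length, another value in the deposited table, served for levels per kilobase.

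Totals of 6908503 to 11169532 reads limit the precision of low members, and intervals cover counting error only. All genes that passed edgeR's filter on low counts were fitted with edgeR 4.0.16 (quasi-likelihood test, TMM scaling, all 4 groups in 1 fit; R 4.3.3), with Benjamini-Hochberg adjustment over all 12643 genes. Allelic counts were fitted with a library term and a mus-allele term per group for the 10301 genes that averaged 10 or more such reads. Alternatives were DESeq2 1.42.0, limma 3.58.1 on log2 of the authors' signal plus 1, other filters and scalings, a fold threshold of 1.2, the compared groups alone, a replicate block and leaving out each library. The scripts were tested on simulated data. Coding sequences came from GENCODE M21 (GRCm38), matched by symbol and compared with edlib 1.3.9.post1; that build differs from mm9, so no coordinates were used.

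Described in full were, per histone type, the members with the highest level, per comparison those with the smallest adjusted p in each direction (up to 6), and the testis and polyadenylated members; of the other lists a few genes named in the rule and up to 4 with the smallest adjusted p. The identical copies, Hist1h2bk, Hist1h3h, Hist1h4f and Hist1h3e fell outside this rule or were chosen after their values were seen. The members and lists were chosen with earlier results of these data known.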

Additional observations from a re-analysis of the deposited data

Results flagged for a closer look

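The change with VX680 differed between cells with and without 5azadC for 7 members, by a test of that difference itself (edgeR, adjusted over all genes). The difference is given as the log2 change with 5azadC minus that without; 4 members had a positive and 3 a negative value, where 4.95% and 10.6% of all genes did. Hist1h4i fell with VX680 alone (-0.53 ± 0.10) but read -0.00 ± 0.10 on top of 5azadC, a difference of 0.53 ± 0.15 (adjusted p = 0.027). Hist2h2ab changed by -1.33 ± 0.27 and -0.09 ± 0.27, a difference of 1.23 ± 0.38 (adjusted p = 0.044). Hist1h2af changed by -1.13 ± 0.12 and -0.56 ± 0.12, a difference of 0.57 ± 0.17 (adjusted p = 0.035). For Hist1h2bm the changes were -0.90 ± 0.11 and -0.41 ± 0.10, a difference of 0.49 ± 0.15 (adjusted p = 0.038). The negative values came from members with few reads in most libraries, Hist1h2aa at -5.51 ± 1.5 (adjusted p = 0.024), Hist1h2bq at -10.02 ± 2.42 (adjusted p = 0.013) and Hist1h2br at -9.83 ± 2.39 (adjusted p = 0.014). The last pair had 2 reads each over both 5azadC+VX680 libraries, so these fitted values are no measure of size. Each of the 7 calls was lost under 5 to 9 of 14 alternatives.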

How the results depend on the processing

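The lower members with VX680 (46) and with both drugs (46) kept their count within 1.5 times under every alternative run, ranging from 40 to 55 and from 37 to 55 when single libraries were left out. For 5azadC+VX680 against 5azadC, the 46 lower members became 30 with a fold threshold of 1.2 and 19 to 55 with a library left out, and the 2 higher became 1 with DESeq2, the fold threshold or the compared groups alone, and 1 to 4. For 5azadC, the 7 higher became 4 with DESeq2, 11 with no filter on low counts, 3 with limma on the authors' signal, 3 with the compared groups alone and 2 to 23 with a library left out (23 without 5azadC replicate 1); the 10 lower became 4 with the fold threshold, 6 with the compared groups alone and 5 to 34 (34 without 5azadC replicate 2). The 6 higher with VX680 became 2 with DESeq2, 3 with the compared groups alone and 0 to 6. The 1 higher with both drugs became 2 with no filter or with limma, and 0 to 2. Between both drugs and VX680, the 1 higher became 4 with no filter, 0 with the fold threshold, 6 with the compared groups alone and 0 to 3, and the 0 lower became 5, 5 with the compared groups alone and 0 to 5. For the difference of the VX680 changes, the 4 higher became 1 with DESeq2, 0 with the fold threshold and 0 to 23, and the 3 lower became 7 with no filter, 1 with limma and 0 to 11. Of the allelic changes, those toward mus (5) with 5azadC became 3 to 6 and those toward cas (0) became 1 from a mean of 5 allelic reads and 0 to 2; with VX680 the 3 toward mus became 5 and 1 to 5, and the 1 toward cas 0 to 4; with both drugs the 1 toward cas became 2 and 0 to 2. Beyond alternatives that test fewer or more genes or samples, the cause was not tested.

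Same-numbered libraries did not deviate together over all genes, where correlations of their deviations lay between -0.0622 and 0.0326. Over the members these lay between -0.2292 and 0.6543, the highest for 5azadC with VX680. Such correlations cannot decide whether same-numbered libraries share a culture or day, which is not stated. With the replicate block, higher and lower members numbered 7 and 9 with 5azadC, 6 and 49 with VX680, 2 and 48 with both drugs, 2 and 48 for 5azadC+VX680 against 5azadC, 1 and 2 against VX680, and 3 and 3 for the difference of the VX680 changes. The authors' scaling moved the median of all genes to 0.12 with VX680 and with both drugs and to 0.10 for both against 5azadC, where member medians were -0.55, -0.59 and -0.47; it called 1904 genes higher and 1330 lower in the last, against 1262 and 1877, and 3646 and 2144 with VX680, against 3005 and 2829. Under that scaling and unscaled CPM, summed levels with VX680 changed by -0.40 (H1), -0.64 (H2A), -0.53 (H2B) and -0.46 (H4), and with both drugs by -0.42, -0.60, -0.60 and -0.30. With a library left out, the sums with 5azadC ranged from -0.24 to 0.089 (H1), -0.16 to 0.12 (H2A), -0.45 to 0.22 (H2B), -0.22 to 0.26 (H3) and -0.24 to 0.24 (H4), those with VX680 from -0.57 to -0.45 (H1) and -0.65 to -0.61 (H2B), and those with both from -0.76 to -0.66 (H2B). Single members changed direction 6 times in 3255 alternatives. With a library left out, the 5azadC changes ranged from -0.50 to 5.22 for Hist1h2bq and -0.69 to 5.02 for Hist1h2br (lowest without 5azadC replicate 1), and from -0.18 to 6.07 for Hist2h2aa1 and -0.28 to 5.96 for Hist2h2aa2 (lowest without 5azadC replicate 2). The log2 mus to cas ratio of Hist1h2ag in untreated cells ranged from -1.73 to 0.20 (highest without untreated replicate 1), and its change with VX680 for Hist1h2bj from -0.035 to 2.82 (lowest without VX680 replicate 1). Depth limits members of a few reads, such as Hist1h2aa and Hist1h1t.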
